A study of Mus musculus with 15 samples.

Results

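Signalling by the IL-6 family was followed through 5 genes of the mouse spleen: the receptor genes *Il6st* and *Il6ra*, the cytokine genes *Il6* and *Lif*, and the transcription factor gene *Cebpb*. They were picked by gene symbol out of the 561 genes of an immunology panel, and all 5 were in the table. The panel counts mRNA molecules with colour-coded probes and no amplification. RNA came from spleen cell suspensions of female C57BL/6J mice, 6 to 8 weeks old when they entered the study, after their red blood cells had been lysed. Sham mice went through the procedure without burn or irradiation. WBIR mice received whole-body ionizing radiation of 9 Gy, and RCI mice received the same dose combined with a burn over 20% of the body surface. In the WBIR+MSC-EVs and RCI+MSC-EVs groups, extracellular vesicles released by mesenchymal stem cells were injected into a vein 72 hours after the injury. All groups held 3 samples, and spleens of treated mice were taken 48 hours after the vesicles. Untreated mice received saline according to the study's text, while the sample labels name PBS for the untreated RCI mice alone. Burned mice were also anaesthetized and given morphine, so RCI differed from WBIR in more than the burn. The study describes its sham procedure under the combined injury, so WBIR may also have differed from Sham in anaesthesia and morphine.

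IL-6 is secreted by macrophages, stromal cells and other cells during infection and injury, and binds the receptor chain encoded by *Il6ra*. That complex recruits the signal-transducing chain encoded by *Il6st*, which nearly all cells carry and which LIF and the other cytokines of the family also use. Janus kinases (JAKs) bound to the shared chain then activate the transcription factor STAT3, and SOCS3 is its main feedback inhibitor. *Cebpb* encodes C/EBP-beta, a factor first described through its binding to the IL-6 gene and active in macrophages and in emergency production of neutrophils.

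The region just before the start of transcription is shown for 3 members, 5′ to 3′ along the strand of the gene, from RefSeq with assembly GRCm38.p6. *Il6* is shown because it carries the letters bound by C/EBP factors, NF-kB and AP-1, and *Il6st* and *Il6ra* because both receptor transcripts were lower after radiation without a burn. Capitals mark every match, on either strand, to TTGCNNAA (C/EBP), GGNNTTTCC (NF-kB), TGANTCA (AP-1) and TTCNNNGAA (STAT).
Il6, chr5:30012864-30013113, plus strand: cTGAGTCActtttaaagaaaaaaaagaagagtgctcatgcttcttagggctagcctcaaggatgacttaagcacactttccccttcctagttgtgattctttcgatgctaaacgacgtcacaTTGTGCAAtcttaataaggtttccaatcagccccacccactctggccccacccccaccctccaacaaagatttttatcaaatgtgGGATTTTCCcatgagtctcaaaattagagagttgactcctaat
Il6st, chr13:112463820-112464069, plus strand: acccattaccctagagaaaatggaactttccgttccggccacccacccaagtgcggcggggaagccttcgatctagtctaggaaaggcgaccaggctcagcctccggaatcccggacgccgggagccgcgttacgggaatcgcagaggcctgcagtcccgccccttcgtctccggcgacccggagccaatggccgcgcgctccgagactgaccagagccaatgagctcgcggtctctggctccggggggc
Il6ra, chr3:89913197-89913446, minus strand: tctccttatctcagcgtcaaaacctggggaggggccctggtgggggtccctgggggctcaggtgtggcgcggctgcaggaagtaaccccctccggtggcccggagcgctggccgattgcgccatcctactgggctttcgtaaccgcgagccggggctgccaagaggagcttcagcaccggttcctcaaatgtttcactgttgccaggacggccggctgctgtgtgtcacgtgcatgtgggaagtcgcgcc
Counted back from the start of *Il6*, the AP-1 letters lie at -249 to -243, the C/EBP letters, read on the opposite strand, at -128 to -121, and the NF-kB letters at -43 to -35. *Lif* held 1 AP-1 match, and *Il6st*, *Il6ra* and *Cebpb* held none of the 4 motifs in the 250 bases searched. Windows of this kind held the C/EBP letters in 9.56% of 32851 promoter entries, the STAT letters in 7.02%, the AP-1 letters in 6.75% and the NF-kB letters in 4.93%. A match describes letters and not binding, and none of the counts below measured binding.

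Counts below are barcode counts scaled to the geometric mean of the panel's 14 reference genes, with mean ± SD over 3 samples. Total counts ranged from 90127 to 598872 per sample. Differences are log2 fold changes with standard errors (SE) from edgeR's quasi-likelihood test over all 15 samples, and a gene was called where the adjusted p was under 0.05. Of the 5 members, 4 had a mean of at least 20 raw counts and entered the test with 422 other genes, while *Il6* did not and took its values from the same fit without that filter. The reference genes themselves moved against each other. Between WBIR and Sham the log2 change was 2.83 in *G6pdx*, the highest, -0.55 in *Tubb5* and -1.70 in *Polr1b*, the lowest. Each difference from Sham was therefore recomputed with TMM scaling, which centres on the panel's own genes. TMM scaling raised the median log2 fold change over all genes against Sham by 0.71 for WBIR and 0.54 for RCI, and by 0.56 and 0.37 for the same injuries with MSC-EVs. The labels do not say whether the 3 samples of a group came from 3 mice. All pairs of libraries within a group differed by more than counting error (chi-square per degree of freedom 7.56 to 205), and p-values measure the spread between these samples, which may be technical.

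Spleens irradiated without a burn held less of both receptor transcripts and more *Cebpb*. In WBIR against Sham, *Il6st* fell 3.36-fold, *Il6ra* fell 2.63-fold and *Cebpb* rose 3.34-fold, while *Lif* was not called. Hence 3 of the 4 members tested were called, 1 higher and 2 lower, against 68.5% of all genes tested, 21.6% higher (92) and 46.9% lower (200). Under TMM scaling the panel's calls split into 135 higher and 150 lower.

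*Il6st* was counted at 415, 1009 and 341 in Sham, at 161, 188 and 172 in WBIR, and at 197, 202 and 181 in WBIR+MSC-EVs. It was counted at 337, 439 and 379 in RCI and at 266, 317 and 241 in RCI+MSC-EVs. Every irradiated sample without a burn lay below every Sham sample, and 1 Sham sample, replicate 2, lay far above the other two. Groups likewise did not overlap in 71.1% of all genes for WBIR against Sham and in 69% for WBIR+MSC-EVs against Sham. From the lowest group mean to the highest the order was WBIR (174 ± 13.8), WBIR+MSC-EVs (193 ± 10.9), RCI+MSC-EVs (275 ± 39.0), RCI (385 ± 51.0) and Sham (588 ± 366). WBIR and WBIR+MSC-EVs overlapped, as did RCI and Sham, while the other neighbours did not overlap.

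Against Sham, *Il6st* differed by -1.75 ± 0.33 (SE, adjusted p = 0.00034) in WBIR and by -1.60 ± 0.33 (adjusted p = 0.00070) in WBIR+MSC-EVs. The difference was -0.60 ± 0.32 in RCI (adjusted p = 0.107, not called) and -1.09 ± 0.32 in RCI+MSC-EVs (adjusted p = 0.0085). The calls in WBIR and in both treated groups held under every alternative run, but the size depended on Sham replicate 2. Without that library *Il6st* differed by -1.12 in WBIR (adjusted p = 0.000157), by -0.97 in WBIR+MSC-EVs, by -0.46 in RCI+MSC-EVs and by 0.03 in RCI. TMM scaling gave -0.99 in WBIR and 0.00 in RCI. Scaling to the 7 least varying reference genes called the difference in RCI, at -0.85 (adjusted p = 0.036), so the direction for RCI against Sham was not settled by these data.

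*Il6ra* was counted at 589, 1156 and 527 in Sham, at 254, 305 and 301 in WBIR, and at 241, 290 and 327 in WBIR+MSC-EVs. The RCI samples held 474, 512 and 255, and the RCI+MSC-EVs samples 586, 594 and 446. All samples irradiated without a burn lay below Sham, RCI replicate 3 fell to their level while its 2 partners did not, and the treated RCI samples reached the range of Sham. The means, from the lowest, were 286 ± 43.0 (WBIR+MSC-EVs), 286 ± 28.5 (WBIR), 414 ± 138 (RCI), 542 ± 83.5 (RCI+MSC-EVs) and 757 ± 347 (Sham), and each pair of neighbours overlapped.

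*Il6ra* fell in WBIR by 1.40 ± 0.32 (SE, adjusted p = 0.00134), in WBIR+MSC-EVs by 1.39 ± 0.32 (adjusted p = 0.00144) and in RCI by 0.87 ± 0.31 (adjusted p = 0.0226), each on the log2 scale against Sham. RCI+MSC-EVs differed from Sham by -0.48 ± 0.31 (adjusted p = 0.188). The first 2 calls held under every alternative, but the size of the difference did not. In WBIR it was -0.67 with median-of-ratios scaling, -0.68 with TMM scaling and -0.96 without Sham replicate 2. The call in RCI was lost under TMM scaling (-0.36, adjusted p = 0.118), under median-of-ratios scaling, with only RCI and Sham in the fit (adjusted p = 0.120), without Sham replicate 2 (-0.44, adjusted p = 0.166) and without RCI replicate 3 (-0.61, adjusted p = 0.082). That library also had the lowest summed counts of B cell, T cell, NK cell and stromal markers among irradiated samples (683, 1880, 203 and 2790), and their part in its *Il6ra* value was not tested.

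*Cebpb* was counted at 250.2, 321 and 367 in Sham and between 854 and 1251 in all 12 irradiated samples. WBIR samples held 1125, 947 and 1065 and those with MSC-EVs 1195, 1078 and 1202. RCI samples held 854, 1251 and 1140.0 and those with MSC-EVs 977, 929.9 and 977. No irradiated sample came near Sham, and the 4 irradiated groups sat close together. Separation from Sham was common, with no overlap in 71.1% of all genes for WBIR and 69% for WBIR+MSC-EVs. For RCI and RCI+MSC-EVs the shares were 64.6% and 70.4%. The means of the irradiated groups, in rising order, were 961 ± 27.2 in RCI+MSC-EVs, 1045 ± 90.6 in WBIR, 1082 ± 205 in RCI and 1158 ± 69.6 in WBIR+MSC-EVs, against 313 ± 58.9 in Sham. Among the irradiated groups each pair of neighbours in this order overlapped.

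The log2 rise of *Cebpb* over Sham was 1.74 ± 0.21 (SE, adjusted p = 6.1e-06) for WBIR and 1.79 ± 0.21 (adjusted p = 5.5e-06) for RCI. With MSC-EVs it was 1.89 ± 0.21 (adjusted p = 3.5e-06) for WBIR and 1.62 ± 0.21 (adjusted p = 1.4e-05) for RCI. It was called in all 4 comparisons under every alternative run, with log2 fold changes from 1.47 to 2.42 among the alternatives that kept all libraries.

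**Figure D1:**
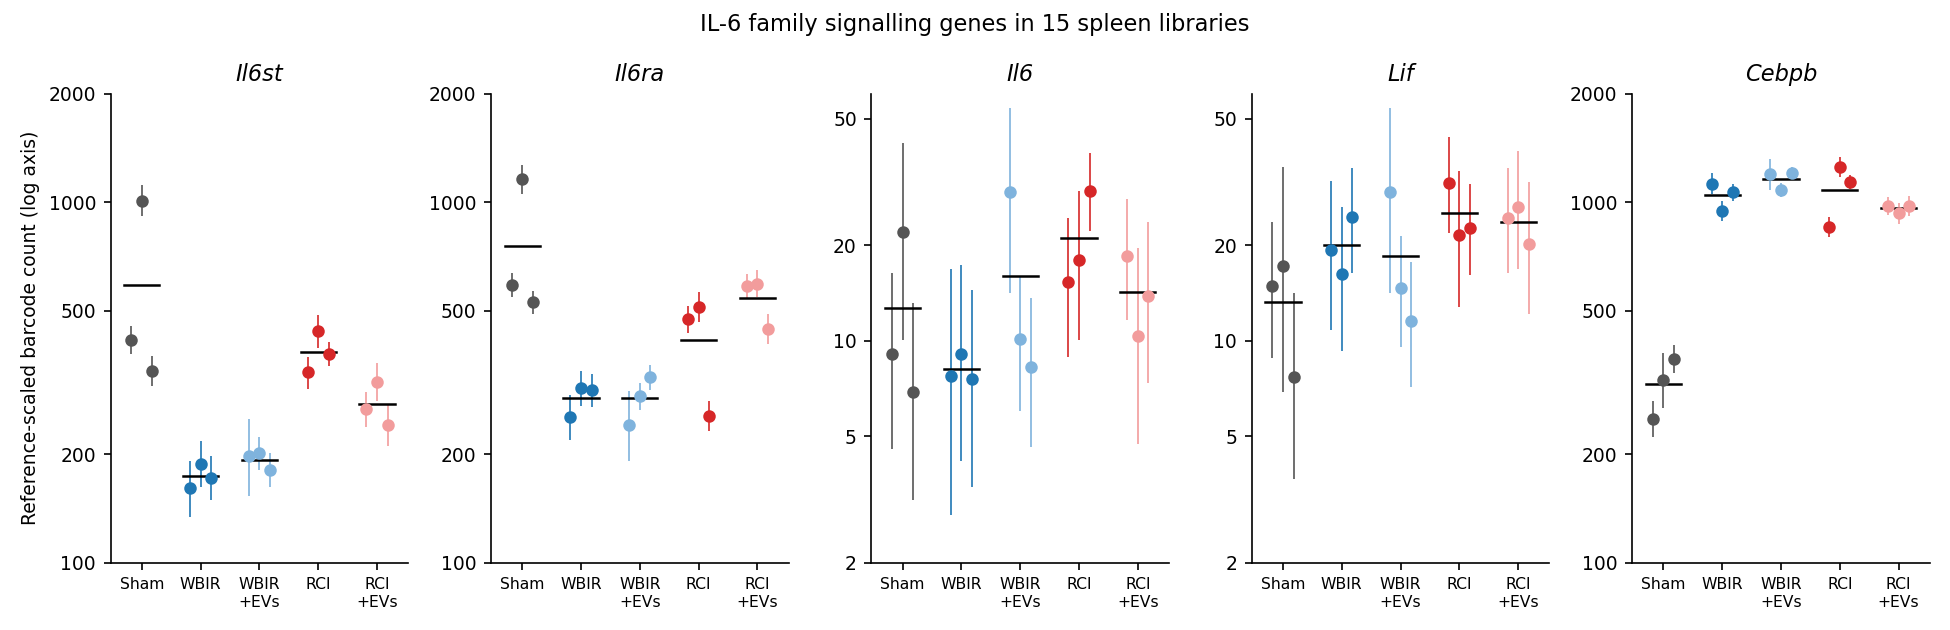
Scaled barcode counts (log axis) of the 5 members in each of the 15 libraries, with groups along the horizontal axis, 1 point per library with its exact 95% Poisson interval (counting error only) and a black line at the group mean. *Cebpb* lies at 250.2 to 367 in Sham and at 854 to 1251 in irradiated spleens, *Il6st* is at 161 to 202 in all 6 WBIR libraries and at 241 to 439 in all 6 RCI libraries, and the intervals of *Il6* and *Lif* span much of each group.

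The cytokine transcripts were scarce. *Il6* had 6 to 51 raw counts and *Lif* 7 to 39 per library, and no detection limit could be set because negative control probes were not used here. *Lif* was counted at 14.9, 17.2 and 7.68 in Sham, at 19.3, 16.2 and 24.4 in WBIR and at 29.4, 14.6 and 11.5 in WBIR+MSC-EVs. The RCI samples held 31.4, 21.6 and 22.7 and the RCI+MSC-EVs samples 24.4, 26.4 and 20.2, so both RCI groups lay above every Sham sample. Groups did not overlap in 64.6% of all genes for RCI against Sham and in 70.4% for RCI+MSC-EVs against Sham. The highest value among WBIR+MSC-EVs samples, in replicate 1, rested on 10 raw counts in the shallowest library. Group means rose in the order Sham (13.3 ± 4.95), WBIR+MSC-EVs (18.5 ± 9.57), WBIR (20.0 ± 4.16), RCI+MSC-EVs (23.7 ± 3.17) and RCI (25.2 ± 5.37), and the neighbours in this order overlapped.

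*Lif* rose in RCI against Sham by 0.99 ± 0.41 (SE, adjusted p = 0.0425). That brought the members called there to 3 of 4, against 69.5% of all genes tested. Of all genes, 26.5% were higher and 43% lower, and with TMM scaling 151 genes were higher and 149 lower. The mean of *Lif*, 21.0 raw counts, was just over the filter of 20, with 35, 18 and 39 in RCI. Over the other libraries its mean was under 20. Its entry to the test, and so the count of 3 of 4, rested on the group compared. The call in RCI was lost under several alternatives, among them scaling to 7 reference genes (adjusted p = 0.114), no filter (adjusted p = 0.052) and leaving out RCI replicate 1 (adjusted p = 0.135) or Sham replicate 3 (adjusted p = 0.172). The log2 difference was 0.66 ± 0.42 in WBIR (adjusted p = 0.166), 0.39 ± 0.43 in WBIR+MSC-EVs (adjusted p = 0.425) and 0.90 ± 0.41 in RCI+MSC-EVs (adjusted p = 0.066). TMM scaling placed *Lif* past the threshold in WBIR (1.25, adjusted p = 0.0097) and in RCI+MSC-EVs (1.19, adjusted p = 0.012).

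*Il6* was counted at 9.11, 22.1 and 6.91 in Sham (11, 9 and 9 raw counts) and at 7.72, 9.11 and 7.58 in WBIR (6, 9 and 9 raw counts). The WBIR+MSC-EVs samples held 29.4, 10.1 and 8.25, the RCI samples 15.2, 18.0 and 29.7, and the RCI+MSC-EVs samples 18.5, 10.3 and 13.8. The highest RCI value came from replicate 3, with 51 raw counts, and every RCI sample lay above every WBIR sample. RCI and WBIR did not overlap in 27% of the genes that passed the filter, and no share was computed for genes under it. In rising order the means were those of WBIR (8.14 ± 0.847), Sham (12.7 ± 8.18), RCI+MSC-EVs (14.2 ± 4.08), WBIR+MSC-EVs (15.9 ± 11.7) and RCI (21.0 ± 7.68), with overlap between all neighbours.

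No log2 difference of *Il6* from Sham was called, with -0.46 ± 0.57 (SE, adjusted p = 0.527) for WBIR and 0.91 ± 0.52 (adjusted p = 0.154) for RCI. With MSC-EVs the values were 0.25 ± 0.56 (adjusted p = 0.762) for WBIR and 0.35 ± 0.54 (adjusted p = 0.611) for RCI. Without the filter, which is the fit used for *Il6*, 55.6% of genes were called for WBIR and 56.7% for RCI, and 54.8% and 52.7% with MSC-EVs. The direction in WBIR turned under TMM scaling (0.18). In RCI the rise was called under TMM scaling (1.46, adjusted p = 0.021) and without Sham replicate 2 (1.40, adjusted p = 0.034).

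**Figure D2:**
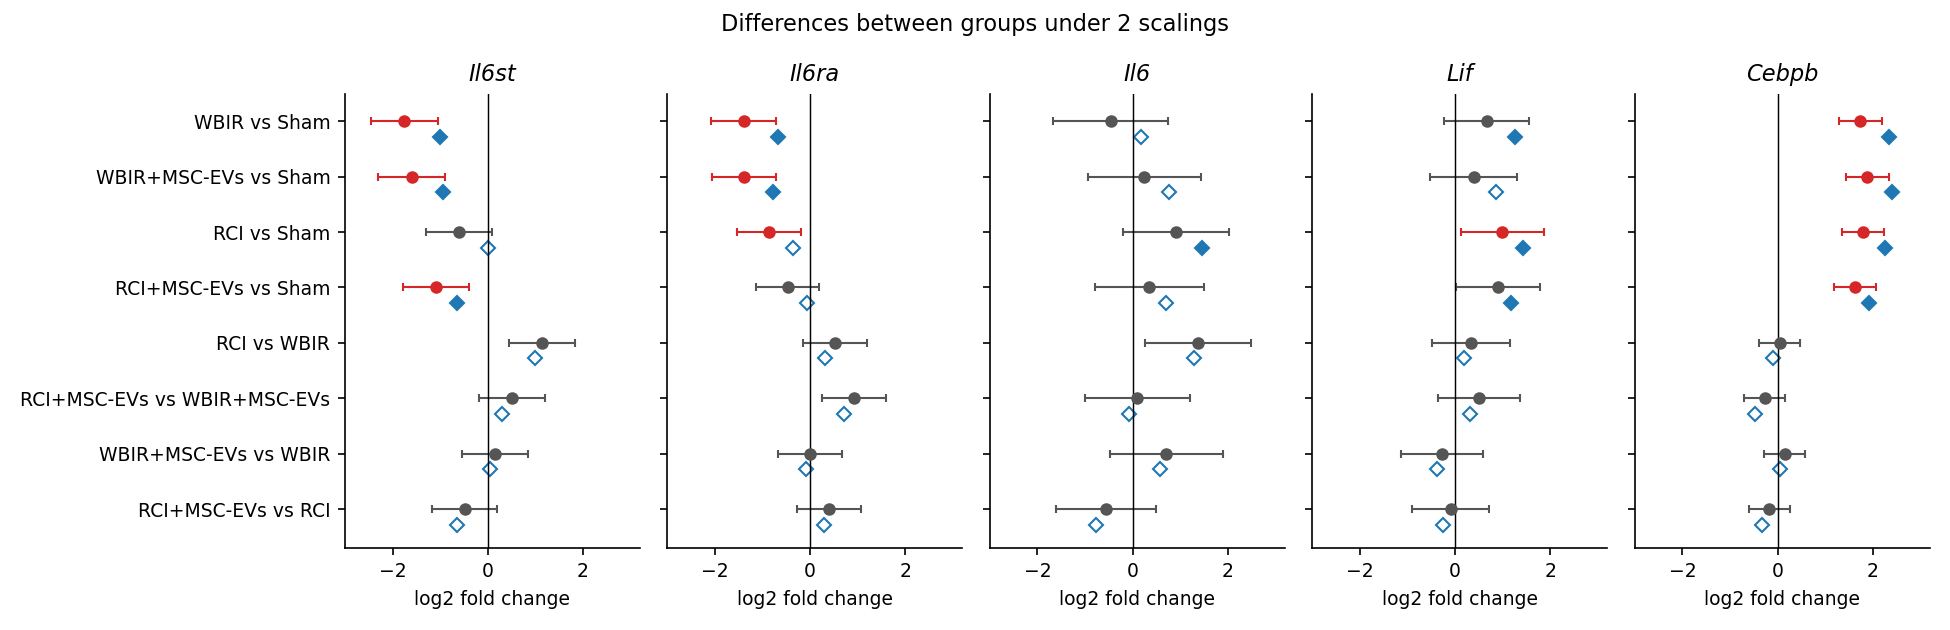
Log2 fold changes (horizontal axis) of the 5 members in 8 comparisons (rows): circles with 95% intervals are from reference-gene scaling, red where called, and blue diamonds are from TMM scaling, filled where called. *Cebpb* stays near 1.6 to 1.9 in all 4 comparisons with Sham and at 0.05 between RCI and WBIR, and the diamonds of all members lie to the right of the circles wherever Sham is the reference.

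With WBIR+MSC-EVs against Sham, 3 of the 4 members tested were called (67.8% of all genes), and with RCI+MSC-EVs against Sham 2 of 4 (65.3% of all genes). These 4 comparisons share the Sham samples, so their similar values are not independent of each other. Cell types moved as well. The summed scaled counts of 7 B cell markers, *Cd79b* among them, went from 15800 to 17600 in Sham to between 683 and 1480 in irradiated samples, and those of 10 T cell markers from 8420 to 17300 to between 1880 and 4140. All 7 B cell and all 10 T cell markers were lower in WBIR and in RCI than in Sham. Macrophage and monocyte markers rose from 2960 to 6240 in Sham to between 18600 and 39000, with 6 of 8 called higher in WBIR and in RCI. Neutrophil markers ranged from 7140 to 40400 within Sham, highest in replicate 2, which also had the most T cell and NK cell marker counts. In irradiated samples they summed to between 1320 and 9180, and 4 of the 5 tested were called lower in WBIR and in RCI. The spleen label was met by abundant B cell, T cell and macrophage markers in Sham. In bulk spleen RNA, fewer cells of a type and less RNA per cell cannot be told apart, and the part of these cell types in the values of the 5 members was not tested.

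The burn added to radiation was compared in RCI against WBIR. *Il6st* was 2.21-fold higher in RCI (log2 difference 1.15 ± 0.32, SE, 95% interval 0.45 to 1.84), its 3 RCI samples all lay above its 3 WBIR samples, and the difference was not called (adjusted p = 0.095). None of the 4 members was called, against 0.704% of all genes, and *Il6st* was one of the 27% of genes whose groups did not overlap. *Il6* differed by 1.37 ± 0.52 without overlap (adjusted p = 0.209), in the fit without the filter, which called 0.731% of genes. The share of 27% covers genes that passed the filter, and none was computed for genes under it such as *Il6*. *Il6ra* differed by 0.53 ± 0.31 (adjusted p = 0.393), *Lif* by 0.33 ± 0.38 (adjusted p = 0.723) and *Cebpb* by 0.05 ± 0.20 (adjusted p = 0.929). For *Cebpb* the 95% interval ran from -0.38 to 0.48, which leaves room for a change of up to 1.39-fold. *Il6st* was called by DESeq2 (1.15, adjusted p = 0.024) and without Sham replicate 2 (adjusted p = 0.0031), a library of neither group that enters through the shared estimate of spread.

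The same comparison among treated mice, RCI+MSC-EVs against WBIR+MSC-EVs, was added after the values were seen. *Il6ra* was 1.89-fold higher there (log2 difference 0.92 ± 0.31, SE) and *Il6st* 1.42-fold higher (0.51 ± 0.32), neither with overlap and neither called (adjusted p = 0.382 and 0.617 by edgeR). *Cebpb* was lower without overlap, by -0.27 ± 0.20 (adjusted p = 0.683). Of all genes 0% were called and 29.8% did not overlap in this comparison.

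Averaged over both arms, *Il6st* was 1.78-fold higher with the burn (log2 difference 0.83 ± 0.23, SE, adjusted p = 0.054), and all 6 RCI samples, at 241 to 439, lay above all 6 WBIR samples, at 161 to 202. With TMM scaling the separation remained, at 246 to 489 against 192 to 229. Groups of 6 did not overlap in 9.62% of genes, and 3.05% were called. *Il6ra* was 1.65-fold higher (0.72 ± 0.22, adjusted p = 0.060), with RCI replicate 3 inside the WBIR range. Neither receptor gene was called. DESeq2, TMM scaling and a fit without Sham each called both, and median-of-ratios scaling (0.63, edgeR adjusted p = 0.038) called *Il6st* alone. With 7 reference genes the differences were 0.58 for *Il6st* (adjusted p = 0.204) and 0.48 for *Il6ra* (adjusted p = 0.292). *Il6* (0.74 ± 0.37, adjusted p = 0.223, with 3.47% of genes called without the filter), *Lif* (0.42 ± 0.28, adjusted p = 0.342) and *Cebpb* (-0.11 ± 0.14, adjusted p = 0.654) overlapped. Beside these values, summed stroma and endothelium markers were 3590 to 5610 in WBIR samples and 2790 to 6960 in RCI samples, NK cell markers 547 to 1170 and 203 to 569, and T cell markers 1980 to 2810 and 1880 to 4140. Their part in the receptor values was not tested.

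MSC-EVs moved none of the 5 members past the threshold in either injury. In WBIR the log2 differences between treated and untreated samples were 0.15 ± 0.32 (SE) for *Il6st*, 0.00 ± 0.31 for *Il6ra*, 0.71 ± 0.56 for *Il6*, -0.27 ± 0.40 for *Lif* and 0.15 ± 0.20 for *Cebpb*, with an edgeR adjusted p of 0.997 each. The groups overlapped for all 5, while they did not for 8.92% of genes. With edgeR 0% of all genes were called and 11 (2.58%) had an unadjusted p under 0.05, none of them a member, and DESeq2 and limma called no member either. The 95% interval of *Il6ra* ran from -0.67 to 0.68 on the log2 scale, so moderate changes were not detectable with 3 samples a group.

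In RCI, *Il6st* was lower in every treated sample (241 to 317) than in any untreated one (337 to 439), a log2 difference of -0.49 ± 0.32 (SE, edgeR adjusted p = 0.989). Groups did not overlap in 10.8% of genes. *Il6ra* went the other way, at 446 to 594 against 255 to 512 (0.39 ± 0.31), with overlap through RCI replicates 1 and 2. Between samples of the same replicate number, which the labels do not pair, *Il6ra* was higher in the treated sample in 3 of 3 pairs. For *Il6st* any pairing puts the treated sample lower, since its groups did not overlap. The share of all genes that behave so was not computed. *Il6* (-0.56 ± 0.49), *Lif* (-0.09 ± 0.38) and *Cebpb* (-0.17 ± 0.20) overlapped, all with adjusted p of at least 0.989. With edgeR 0% of all genes were called and 14 (3.29%) had an unadjusted p under 0.05, again without a member, and DESeq2 and limma called no member. Averaged over both injuries no member was called (adjusted p of at least 0.98, 0% of all genes), and no MSC-EV difference depended on the injury by the test of that difference (*Il6st* -0.64 ± 0.46, adjusted p = 0.998, 0% of all genes called). The widest gap between the 2 injuries was that of *Il6*, at -1.27 ± 0.74 (adjusted p = 0.999).

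The ratio of *Il6st* to *Il6ra* raw counts within a library is free of the scaling between libraries, and was added after the values were seen. It was 0.705, 0.873 and 0.647 in Sham, 0.635, 0.618 and 0.571 in WBIR, and 0.817, 0.696 and 0.553 in WBIR+MSC-EVs. In RCI it was 0.712, 0.857 and 1.49, and in RCI+MSC-EVs 0.454, 0.534 and 0.539. The RCI+MSC-EVs libraries had the 3 lowest ratios of all 15, below each RCI library, and the highest ratio was that of RCI replicate 3. The mean ratio was 1.02 ± 0.414 in RCI and 0.509 ± 0.0477 in RCI+MSC-EVs. These ratios compare libraries and carry no test, and they do not compare the abundance of the 2 transcripts, since each has its own probe.

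The ratio of *Cebpb* to *Il6st* counts joined both directions of change. It was 0.603, 0.318 and 1.08 in Sham. WBIR libraries had 5.03 to 6.99 without and 5.35 to 6.64 with MSC-EVs, and RCI libraries had 2.53 to 3.01 without and 2.93 to 4.06 with MSC-EVs. The 3 tiers of Sham, burned and unburned irradiated spleens did not touch, whatever scaling is used. This ratio too was chosen after the values were seen and carries no test. *Cebpb* alone separated Sham from irradiated samples and *Il6st* alone separated RCI from WBIR samples, so the tiers repeat those separations and add no independent result.

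**Figure D3:**
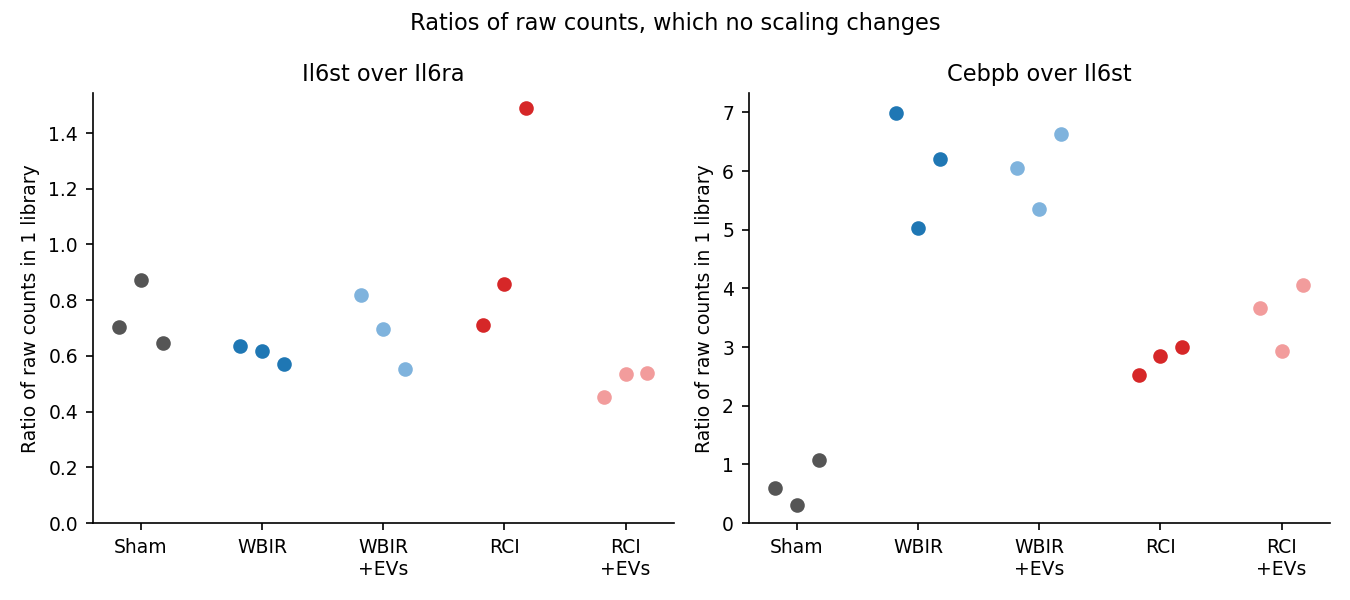
Ratios of raw counts within each of the 15 libraries (1 point each, linear axes from 0), *Il6st* over *Il6ra* on the left and *Cebpb* over *Il6st* on the right, by group. On the left the RCI+MSC-EVs libraries lie lowest at 0.454 to 0.539 and RCI replicate 3 highest at 1.49, and on the right all RCI libraries lie at 2.53 to 4.06, between Sham (up to 1.08) and WBIR (from 5.03).

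Around the members, 48 further genes of the pathway were listed by role, of which 28 were on the panel and 21 could be tested. In WBIR against Sham 4 rose, 7 fell and 10 were not called, and in RCI against Sham 8 rose, 6 fell and 7 were not called, beside 68.5% and 69.5% of all genes called. Their median log2 fold change was -0.26 in WBIR and 0.46 in RCI, beside -0.74 and -0.53 over all genes tested. TMM scaling changed these counts to 6 higher and 5 lower in WBIR and 12 higher and 4 lower in RCI.

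Of the other receptors and cytokines of the family, 2 were tested. *Il27ra*, the receptor chain that pairs with the product of *Il6st* to bind IL-27, fell with the radiation by 2.43 ± 0.38 (SE) on the log2 scale in WBIR and by 2.35 ± 0.38 in RCI (edgeR adjusted p = 7.7e-05 and 9.5e-05). *Ebi3*, which encodes a subunit of IL-27 itself, rose by 0.67 ± 0.25 in WBIR and 0.86 ± 0.25 in RCI (adjusted p = 0.028 and 0.0071). Both calls held under the 3 other scalings and without Sham replicate 2 or RCI replicate 3.

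Among the 5 transducers, the kinases *Jak1* and *Jak2* fell in both injuries. *Jak1* differed by -1.38 ± 0.24 (SE) in WBIR and -1.77 ± 0.24 in RCI, and *Jak2* by -1.78 ± 0.21 and -1.43 ± 0.20, all with an edgeR adjusted p of at most 0.00015, and these 4 calls held under the 3 other scalings. *Stat3*, which transmits the IL-6 signal, was not called in either injury (-0.26 ± 0.18 and 0.08 ± 0.18) and passed the threshold in RCI under TMM scaling, at 0.53, and under median-of-ratios scaling, at 0.55.

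Of the 4 inhibitors tested, the phosphatase gene *Ptpn2* fell by 1.09 ± 0.22 (SE) on the log2 scale in WBIR and by 0.81 ± 0.22 in RCI, the latter not called under TMM scaling (-0.29). The feedback inhibitor *Socs3* fell in WBIR (-1.19 ± 0.49, edgeR adjusted p = 0.044), a call absent without Sham replicate 2 (-0.58), under TMM scaling (-0.44) and with 7 reference genes (-1.14, adjusted p = 0.055), and in RCI it differed by -0.61 ± 0.48 (adjusted p = 0.262). *Socs1*, which restrains JAK signalling of many cytokines, was not called in WBIR (-0.14 ± 0.22) and rose in RCI (0.64 ± 0.22, adjusted p = 0.015), a call absent with 7 reference genes (0.41).

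*Socs1* was also 1 of the 2 pathway genes called for the burn averaged over both arms, where 3.05% of all genes were called. Without Sham replicate 2, a library of neither arm, 8 pathway genes were called (7 higher and 1 lower), and the calls over all genes went from 13 to 79. *Socs1* was counted at 158, 145 and 192 in WBIR and at 215, 232 and 259.5 in WBIR+MSC-EVs. The RCI samples held 274, 274.5 and 303, and the RCI+MSC-EVs samples 357, 436 and 400.2. All RCI samples lay above all WBIR samples, and within each injury the treated samples lay above the untreated ones. Among all genes tested, 9.62% did not overlap for the burn over both arms. For MSC-EVs the shares were 8.92% in WBIR and 10.8% in RCI. The burn difference was 0.77 ± 0.15 (SE, edgeR adjusted p = 0.019), and 0.53 (adjusted p = 0.102) with 7 reference genes. The MSC-EV difference was 0.52 ± 0.22 in WBIR and 0.48 ± 0.21 in RCI, neither called (adjusted p = 0.997 and 0.989).

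Of 10 tested genes known to be induced through STAT3 or C/EBP-beta, 2 rose and 2 fell in WBIR and 5 rose and 2 fell in RCI, where 68.5% and 69.5% of all genes were called. With TMM scaling 3 rose and 1 fell in WBIR and 7 rose and 1 fell in RCI. The transcription factor gene *Maf* rose in both (2.23 ± 0.26 and 2.03 ± 0.26, SE) and the germinal centre factor gene *Bcl6* fell in both (-1.88 ± 0.44 and -2.02 ± 0.44), each under all scalings. The adhesion molecule gene *Icam1* rose in WBIR by 1.05 ± 0.34 (edgeR adjusted p = 0.012) and differed by 0.44 ± 0.33 in RCI (adjusted p = 0.249), or by 0.97 there under TMM scaling (adjusted p = 0.047). The receptor gene *Il4ra* fell by 1.12 ± 0.30 in WBIR and by 0.90 ± 0.30 in RCI on the log2 scale, and neither was called under TMM scaling (-0.45 and -0.41). The call in RCI was also lost without Sham replicate 2 (-0.66) and without RCI replicate 3 (-0.75).

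The complement gene *C3* and the chemokine gene *Ccl2*, a monocyte attractant, had the largest rises of this role in RCI, and both were led by RCI replicate 3. *C3* was counted at 147 to 216 in Sham, at 146 to 408 in WBIR and at 486, 588.5 and 1871 in RCI. *Ccl2* had 2 to 7 raw counts in Sham and 31, 38 and 552 in RCI. The log2 rise of *C3* was 2.49 ± 0.50 (SE, edgeR adjusted p = 0.00056) and without RCI replicate 3 it was 1.62 (adjusted p = 0.0019). That of *Ccl2* went from 4.97 ± 0.95 to 3.10 (adjusted p = 0.00075). Without RCI replicate 3 the mean raw count of *Ccl2* was just under the filter of 20, but the same genes were tested. *Ccl2* thus entered the test through that library, and its value of 3.10 is no independent support for the rise. *Tnf*, the other pathway gene called for the burn averaged over both arms (1.76 ± 0.44, adjusted p = 0.047), was counted at 43.0, 47.9 and 241 in RCI and at 57.1, 65.5 and 87.3 in RCI+MSC-EVs. It reached at most 33.0 in any of the 6 WBIR samples. Sham samples held 49.7, 36.8 and 13.8 of *Tnf*, a range that took in RCI replicates 1 and 2. The call of *Tnf* for the burn was lost under TMM scaling (1.67, edgeR adjusted p = 0.061) and without RCI replicate 3 (1.11, adjusted p = 0.055).

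**Figure D4:**
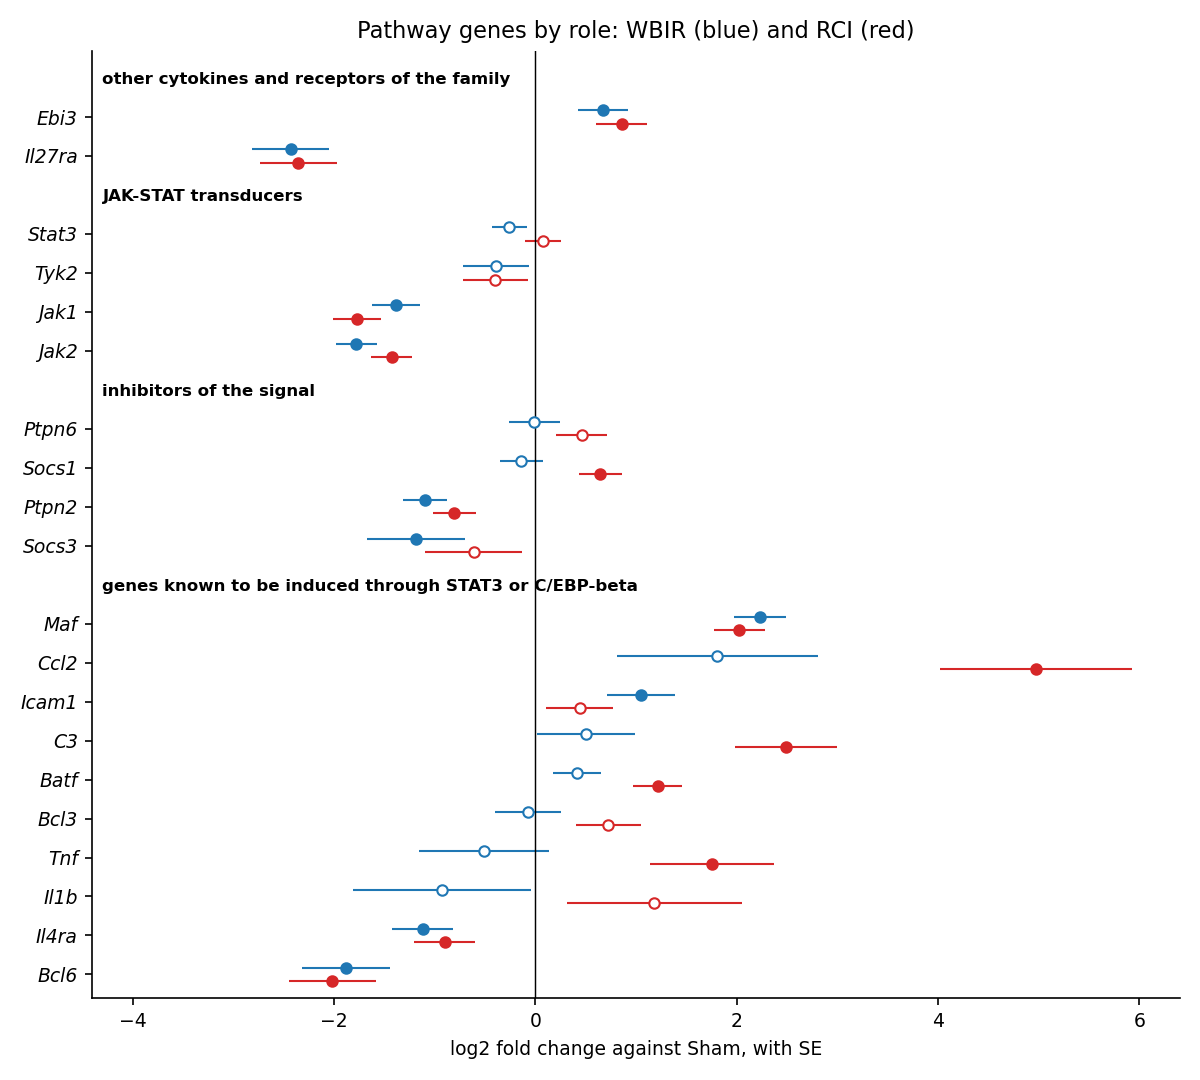
Log2 fold changes against Sham (points, with SE) of 20 of the 21 tested pathway genes by role, for WBIR in blue and RCI in red, filled where called. *Il27ra*, *Jak1*, *Jak2*, *Ptpn2*, *Il4ra* and *Bcl6* are called lower and *Ebi3* and *Maf* higher in both injuries, and *Ccl2* at 4.97 and *C3* at 2.49 lie farthest right in RCI.

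The genes whose pattern over the 15 libraries was most like that of a member were found by the root mean square difference of log2(scaled count + 1), centred on each gene's mean. For *Il6ra* these were *Cd97* (0.197), *Ptprc* (0.277), which encodes the pan-leukocyte protein CD45, and *H2-K1* (0.278). For *Il6st* they were *Ikbkap* (0.285), the interferon receptor gene *Ifnar1* (0.308) and *Il2rg* (0.325), which encodes a chain shared by several cytokine receptors. *Cebpb* was followed most closely by *Ptk2* (0.245), *Tnfsf12* (0.326) and *Src* (0.331), and *Lif*, at counts where counting error is large, by *Psmc2* (0.367), *Ifi35* (0.373) and *Psmd7* (0.375). The median over all genes tested was 0.816 for *Il6st*, 0.759 for *Il6ra*, 0.854 for *Lif* and 1.08 for *Cebpb*. A gene with flat counts would score the member's own spread, 0.678 for *Il6st*, 0.611 for *Il6ra*, 0.49 for *Lif* and 0.730 for *Cebpb*. The genes nearest to *Lif* were thus only a little closer to it than a flat gene.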

How the data were processed

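Spleen mRNA of 15 samples in 5 groups was assayed with the nCounter Mouse Immunology Panel. The authors lysed red blood cells, isolated RNA, counted barcodes on the digital analyzer and normalized them in nSolver. What was deposited are raw counts, without that normalization, for 14 reference and 547 endogenous genes. Scaling here divided each sample by the geometric mean over the 14 reference genes. The 426 genes averaging 20 counts or more were tested with edgeR 4.0.16 in R 4.3.3 (quasi-likelihood, 1 coefficient per group, 10 residual degrees of freedom, two-sided, Benjamini-Hochberg over all genes tested, threshold 0.05). The common dispersion was 0.11. *Il6* was under the filter and was tested without it. Intervals of single counts are exact Poisson, at 95%, and cover counting error only.

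Members and lists were chosen with earlier results of these data known. All 5 members are reported. Pathway genes were named where called against Sham, at most the 2 largest rises and 2 largest falls in each role, or where called between injuries or treatments. Bar *Stat3*, chosen after its values were seen, they follow that rule. Alternatives were TMM, median-of-ratios and 7-reference scaling, DESeq2 1.42.0, limma 3.58.1 on log2(scaled count + 10), no filter, a mean of at least 50 counts, only the groups compared, a replicate block and leaving out each library. The comparison of both treated groups, the within-library ratios and the settings of the pathway lists were added after seeing the data. Same-numbered treated and untreated samples deviated together within each injury over all genes tested. Their r was 0.24 to 0.68 over 3 WBIR pairs and 0.26 to 0.52 over 3 RCI pairs. Samples of different numbers gave r from -0.60 to 0.51 in WBIR and from -0.49 to 0.35 in RCI. Some of these exceeded the r of the same number, such as WBIR replicate 2 with WBIR+MSC-EVs replicate 3 (0.51 against 0.39). Whether the numbers pair the samples is therefore not settled, and the labels give no shared litter, batch or day. A fit with replicate terms within each injury was added after seeing the data. Scripts were tested on simulated counts. Cartridges and run dates are not given in the sources used here, so no batch was modelled. A pathway gene that was tested enters the counts of its list and is not reported here by name.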

Additional observations from a re-analysis of the deposited data

How the results depend on the processing

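The numbers of members called were recomputed under every alternative. Of the members' log2 differences, 442 of 482 kept their direction and their side of the threshold under the alternatives with all libraries, and 779 of 825 when 1 library was left out. Most of these differences were not called to begin with, so that they kept their side says little. A call was lost in 6 and 11 of these rows, always that of *Il6ra* or *Lif* in RCI against Sham. With all libraries *Il6ra* kept its call there in 6 of 9 alternatives and *Lif* in 5 of 8. For RCI against Sham the number of members called was 1 with only those groups in the fit, and 2 to 4 when a library was left out. For RCI against WBIR it was 1 with DESeq2 and 0 to 1 without a library. For the burn averaged over both arms it was 2 with TMM scaling, 1 with median-of-ratios scaling, 2 with DESeq2, 2 with only the groups compared, 1 with a replicate block, and 0 to 2 without a library.

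Where a difference changed sign it was called neither before nor after. *Il6* in WBIR against Sham became 0.18 with TMM and 0.19 with median-of-ratios scaling. *Il6st* in RCI against Sham became 0.013 with median-of-ratios scaling and ran from -0.88 to 0.026 without a library, reaching 0.026 without Sham replicate 2. *Il6ra* in WBIR+MSC-EVs against WBIR became -0.097 with TMM, -0.085 with median-of-ratios scaling, -0.043 with 7 reference genes, -0.0071 with limma and -0.0057 with a replicate block within each injury. *Cebpb* in RCI against WBIR became -0.094, -0.081 and -0.26 under TMM, median-of-ratios and 7-reference scaling, and for MSC-EVs averaged over injuries 0.0085 with 7 reference genes. *Il6* in RCI+MSC-EVs against WBIR+MSC-EVs became -0.069, -0.096 and -0.088 under the same 3 scalings and -0.022 with limma, and for MSC-EVs averaged over injuries -0.092 with TMM and -0.11 with median-of-ratios scaling. The cause was not tested.

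Leaving out 1 library gave ranges across 0 for *Il6ra* in WBIR+MSC-EVs against WBIR (-0.10 to 0.11), *Lif* there (-0.61 to 0.0038), *Lif* in RCI+MSC-EVs against RCI (-0.18 to 0.093) and *Cebpb* in RCI against WBIR (-0.068 to 0.19). The same held for *Cebpb* (-0.083 to 0.048) and *Il6* (-0.20 to 0.25) with MSC-EVs averaged over injuries, *Lif* for the MSC-EV difference between injuries (-0.096 to 0.52), and *Il6* in WBIR against Sham (-0.80 to 0.026), WBIR+MSC-EVs against Sham (-0.27 to 0.71) and RCI+MSC-EVs against WBIR+MSC-EVs (-0.25 to 0.64).

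Replicate numbers may pair treated with untreated samples within each injury, but some samples of different numbers deviated together as strongly. Under a replicate block fitted inside each injury, which was chosen after seeing the data, none of the 5 members was called for MSC-EVs. In RCI *Il6st* was then -0.49 and *Il6ra* 0.44 (edgeR adjusted p = 0.908 each). That block changed no call. Across all groups the numbers did not pair the samples. Of 30 pairs with the same number, 11 deviated together with a correlation over 0.1 (range -0.49 to 0.68), and 5 of 15 samples correlated best with their own number. With the replicate number as 1 block over all groups, *Il6st* for the burn averaged over both arms was 0.82 (edgeR adjusted p = 0.049), which is past the threshold, and no other member's call changed. Counts over all genes for the burn averaged over both arms went from 13 to 28 with TMM, 26 with median-of-ratios scaling, 4 with 7 reference genes, 68 with DESeq2 and 76 with only the groups compared, and for RCI against WBIR from 3 to 1, 1, 2, 28 and 0. Depth limits *Il6* and *Lif*, whose raw counts were 6 to 51 and 7 to 39.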
